A study of Caenorhabditis elegans with 2 samples.

Results

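Chromatin bound by NHR-25 was examined at the histone genes of Caenorhabditis elegans. The members are all protein-coding genes whose symbol in the WBcel235 annotation is his- followed by a number, which gives 72 of 19985 protein-coding genes. The rule takes them by name and not by any peak value, though it was set with earlier results of these data known. The data come from chromatin immunoprecipitation and sequencing (ChIP-seq) of whole hermaphrodites of strain OP33 at the L4 larva stage, in 2 biological replicates of 1 group. The strain has the genotype unc-119(ed3) III; wgIs33 and stably expresses NHR-25 fused at its C terminus to GFP and FLAG. The protein was precipitated with an anti-GFP antibody. The labels name no tissue, so binding in different cells of the animal cannot be told apart. They name a possible control experiment, and no control track was used here. In all, 4 peak lists of build ce11 were used, namely 23929 peaks of replicate 1, 30000 of replicate 2, 30000 of both replicates pooled, and 1826 that passed the authors' threshold on reproducibility. The pooled and replicate lists are deposited as peaks and background, so a low entry in them need not be a binding site.

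NHR-25 is a nuclear hormone receptor of the NR5A family, related to FTZ-F1 of flies and SF-1 of mammals, and acts in epidermis, molting and the somatic gonad. The core histones H2A, H2B, H3 and H4 form the protein spool of the nucleosome, and H1 linker histones bind the DNA between nucleosomes. In the worm, as in other animals, most core histone genes are present in many near-identical copies and are used mainly while DNA is replicated. H3.3-type variants are instead deposited outside replication.

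The 72 genes comprised 17 H2A, 16 H2B, 15 H3 and 16 H4 genes, 5 H3.3-type genes, the H1 gene his-24, and 2 genes (his-39 and his-73) whose product is annotated only as holding a histone domain. Members at most 10 kb apart were joined into 14 clusters with 67 genes, and 5 genes were isolated. Most clustered genes form divergent pairs that share the stretch between their 5′ ends. There were 31 such stretches, 227 to 368 bp long, and 62 members flank one. Of these, 16 lie between an H2A and an H2B gene, 14 between an H3 and an H4 gene, and 1 between the H4 gene his-67 and the H2A gene his-68. For 64 of the 72 members the annotated 5′ end is the first base of the coding sequence, so true transcription starts lie somewhat upstream of it. A gene was called bound when, among protein-coding genes, its 5′ end lay nearest to a peak summit and within 2 kb of it.

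Of the 72 histone genes, 7 were bound in the thresholded list, each by 1 peak. This is 9.72% (Wilson 95% interval 4.79% to 18.7%), beside 6.05% of all protein-coding genes, a share that lies inside the interval. The interval treats the genes as independent, which divergent partners and near-identical copies are not, so it is a description only. The bound genes were 3 H4 genes (his-37, his-31 and his-60), 2 H2B genes (his-4 and his-62), the H2A gene his-68 and the H1 gene his-24. None of the 5 H3.3-type genes was nearest to a thresholded summit. No H3 gene was assigned one, but the H3 gene his-32 lay as near to its summit as his-31, at 161 bp. That tie was given to his-31 by position order along the chromosome, so the lack of a bound H3 gene depends on it. Which gene of a divergent pair is nearest depends on few bases. When every gene with a 5′ end within 500 bp of a thresholded summit was counted, 12 of 72 members had one (16.7%, beside 4.78% of all genes). These 12 were 4 H4, 3 H2A, 2 H2B and 2 H3 genes and his-24. Within 2 kb there were 19 members (26.4%, beside 9.26% of all genes), which includes neighbours in the same cluster that share 1 peak. From the 1826 strongest peaks of 1 replicate, 7 members were bound in replicate 1 (beside 5.8% of all genes) and 6 in replicate 2 (beside 5.96%). These were not all the same genes as the 7 of the thresholded list. Both sets held the H3 gene his-42, which had no thresholded summit, at rank 323 in replicate 1 and 1813 in replicate 2.

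The sequences under 6 of the 7 summits are shown because they hold a stretch of bases in common. All run 5′ to 3′ on the plus strand of ce11 and cover 100 bp on each side of the pooled summit. The window of his-24 is trimmed to the bases before its 5′ end. Capitals mark the shared 14-base sequence ATGTGTCCCNGCAG or its reverse complement.
his-37, chrV:9546887-9547087: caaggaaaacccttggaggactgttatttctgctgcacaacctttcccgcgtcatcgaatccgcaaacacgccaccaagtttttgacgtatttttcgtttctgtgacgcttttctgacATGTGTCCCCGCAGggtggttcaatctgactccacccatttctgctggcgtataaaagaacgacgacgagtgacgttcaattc
his-31, chrIV:8334044-8334244: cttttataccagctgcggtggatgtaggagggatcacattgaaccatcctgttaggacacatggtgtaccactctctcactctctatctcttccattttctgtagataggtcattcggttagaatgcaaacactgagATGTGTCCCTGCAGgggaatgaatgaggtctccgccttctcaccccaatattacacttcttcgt
his-4, chrV:16040548-16040748: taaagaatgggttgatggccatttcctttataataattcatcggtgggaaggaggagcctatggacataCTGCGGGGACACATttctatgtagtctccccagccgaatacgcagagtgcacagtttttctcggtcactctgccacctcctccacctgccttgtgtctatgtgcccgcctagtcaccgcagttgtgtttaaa
his-60, chrIV:7488007-7488207: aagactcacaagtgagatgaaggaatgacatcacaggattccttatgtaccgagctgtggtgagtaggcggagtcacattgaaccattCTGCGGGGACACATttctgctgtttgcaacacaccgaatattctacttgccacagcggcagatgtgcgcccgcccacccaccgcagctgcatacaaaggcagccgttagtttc
his-62, chrIV:7486316-7486516: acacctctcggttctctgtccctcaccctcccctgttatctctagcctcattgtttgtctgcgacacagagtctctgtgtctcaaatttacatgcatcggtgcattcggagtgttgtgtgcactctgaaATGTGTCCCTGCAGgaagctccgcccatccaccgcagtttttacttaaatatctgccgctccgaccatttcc
his-24, chrX:14489999-14490093: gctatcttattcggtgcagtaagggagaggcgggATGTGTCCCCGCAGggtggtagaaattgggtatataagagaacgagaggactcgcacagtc

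The 14-base sequence is the longest one, with 1 free position, that occurs on either strand in the windows of all 7 bound summits, and it was the only one of that length. It was found in these windows, so its presence in 7 of 7 is given by how it was derived. It was in no other window among the 1801 thresholded nuclear summits (0.389% in all). Its centre lay from 59 bp on one side to 44 bp on the other side of the summits, and 5 bp from the summit at his-60. Across the nuclear genome there were 39 copies, and 17 of them had a histone gene as the nearest 5′ end within 2 kb. All 17 lay upstream, 54 to 134 bp from the 5′ end with a median of 99 bp, and all 17 read in the direction of that gene. Of the 200 bp before each gene's 5′ end, it was present in 28 of 72 members (38.9%) and in 31 of 19973 nuclear protein-coding genes (0.155%), so 3 genes outside the members had it. Divergent partners share copies and duplicated loci share ancestry, so these members are not independent.

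The strongest histone peak was at his-37, an H4 gene of the cluster his-35, his-41 and his-37 on chromosome V. The peak at 9546866 to 9547106 reached 136 in the pooled list and ranked 19 among the 1801 nuclear thresholded peaks. Replicate 1 gave it a signal of 61.9 and replicate 2 one of 77.5, with ranks 26 and 47 in the full lists. All 3 summits fell on the same base, 118 bp upstream of the annotated 5′ end. Unlike most members, his-37 flanks no divergent stretch. The only divergent stretch of this cluster, between the H2A gene his-35 and the H2B gene his-41, had a pooled summit of only 12.9 and none in the replicate 1 list.

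Next came the divergent stretch between his-67 (H4) and his-68 (H2A), which form a cluster of their own on chromosome I. The peak at 9988894 to 9989071 had a pooled signal of 118, while the replicate lists gave it 52.3 (replicate 1) and 65.9 (replicate 2). The replicates placed it at different genes: the summit of replicate 1, 46 bp from the pooled one, was nearest to his-67, and that of replicate 2 to his-68. This stretch, the longest of the 31 at 368 bp, was the only one with 2 copies of the 14-base sequence, and the pooled summit lay 7 bp from one of them.

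The peak between his-31 (H4) and his-32 (H3) on chromosome IV, at 8333949 to 8334338, had a pooled signal of 80.4 and replicate signals of 28.6 and 50.6. Its summit lay 161 bp from both 5′ ends, at the midpoint of the stretch. The cluster his-29 to his-34 has 2 further divergent stretches, both between H2A and H2B genes, and neither held a pooled summit. On chromosome V, the peak between his-4 (H2B) and his-3 (H2A), at 16040453 to 16040842, had a pooled signal of 52.9 and replicate signals of 22.4 and 32.8. The summit was 133 bp from his-4 and 160 bp from his-3, and it was nearest to his-3 in replicate 1. In the same cluster the stretch between his-2 (H3) and his-1 (H4) had a pooled summit of 6.76 and none in either replicate list. Weak replicate peaks did overlap this stretch, with summits just inside the genes. They lay 32 bp into his-1 in replicate 1 (3.73) and 33 bp into his-2 in replicate 2 (5.53).

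The cluster his-61, his-62, his-60 and his-59 on chromosome IV was the only one with 2 thresholded peaks, 1 in each of its stretches, and both peaks were near the threshold. Between his-60 (H4) and his-59 (H3) the peak at 7487912 to 7488301 had a pooled signal of 35.4. It had 25.7 in replicate 2 (rank 1019) and 10.4 in replicate 1, where it ranked 2901 and thus outside the 1826 strongest. Between his-61 (H2A) and his-62 (H2B) the peak at 7486221 to 7486610 had a pooled signal of 31.7, just above the lowest thresholded value of 30.3. By rank the order of the replicates was the other way round, with 24.4 in replicate 1 (rank 434) and 17.6 in replicate 2 (rank 2312).

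The H1 gene his-24, isolated on chromosome X and coding for a linker histone, had a peak at 14489904 to 14490293 with a pooled signal of 33.5. Replicate 1 gave it 16.4 at rank 1151, and replicate 2 gave it 17.4 at rank 2354. It was thus among the 1826 strongest peaks of replicate 1 but not of replicate 2. The summit lay 5 bp inside the gene, within the antisense noncoding RNA gene M163.19, and the copy of the 14-base sequence lay 54 bp before the 5′ end. The other 6 bound summits lay 115 to 161 bp upstream of their gene. Over all nuclear thresholded summits, 11.3% lay 100 to 200 bp upstream of the nearest 5′ end. Among the 1367 of them with a 5′ end within 2 kb, as all histone summits here have, it was 14.9%. Apart from his-37, the 6 genes flank a short divergent stretch, which limits the distance to the nearest 5′ end. Their annotated 5′ end is also the first coding base, so these shares are not a like comparison.

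**Figure D1:**
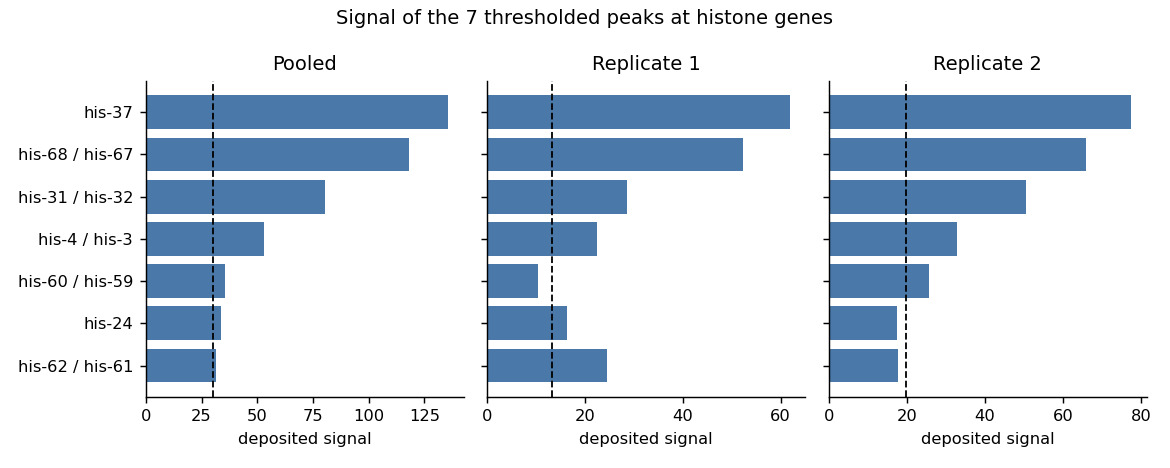
Deposited signal (x axis, no stated unit) of the 7 thresholded peaks at histone genes in the pooled list and of the strongest overlapping peak in each replicate list. The dashed lines mark the signal of the 1826th peak of each list; his-60 falls under it in replicate 1, and his-24 and his-62 fall under it in replicate 2.

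The median pooled signal of the 7 peaks was 52.9, beside 41.1 over all nuclear thresholded peaks. All 7 overlapped a peak of both replicate lists, and 4 of 7 overlapped the 1826 strongest of both (57.1%, Wilson interval 25.0% to 84.2%). The thresholded list was selected on reproducibility, so overlap with both full lists is largely given by that selection. The same shares over all thresholded peaks were not counted, so these cannot be read as high or low. The order of the peaks was similar in the replicates (Spearman rho = 0.821 over 7 peaks, a description only, since the peaks were called on reads pooled from the same libraries). Replicate summits lay up to 56 bp (replicate 1) and 69 bp (replicate 2) from the pooled summit, while the stretches between the 5′ ends of a pair are 227 to 368 bp long. The summit of replicate 1 named the same gene as the pooled summit in 4 of 7 cases and that of replicate 2 in 6 of 7. For this reason the values below are given per stretch as well as per gene.

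**Figure D2:**
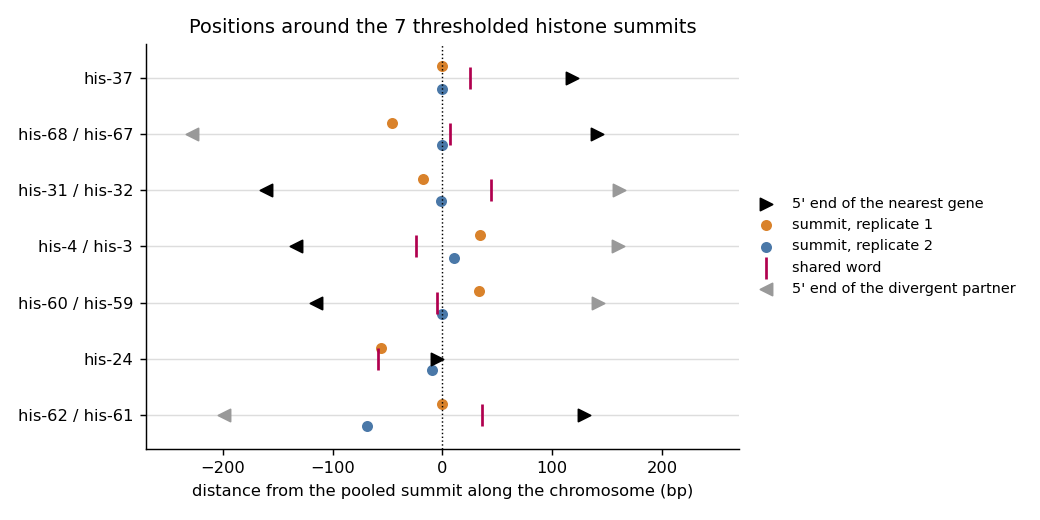
Positions around the 7 summits in bp along the chromosome, with the pooled summit at 0. Black arrows are the 5′ end of the nearest gene, grey arrows that of its divergent partner, dots the replicate summits and red bars the copy of the 14-base sequence inside the 100 bp window; the copies lie within 59 bp of each pooled summit.

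Of the 31 divergent stretches, 5 held a thresholded summit (16.1%) and 10 a pooled one (32.3%). Among 296 other divergent stretches in the same length range the shares were 13.9% and 48.0%. Copy number moves with this result. In a near-identical copy few short reads have a unique place, and how the authors treated such reads is not given in the sources used here. In 8 of the 31 stretches at least 90% of the 36-base words occur at a single place in the genome (100% in each). All 8 held a pooled summit and 5 a thresholded one (62.5%). Of the other 23, where 0% to 85.6% of words are unique, 2 held a pooled summit and 0 a thresholded one. Among the 296 other stretches, 93.9% are unique by this measure, and of those 278 14.0% held a thresholded summit and 50.4% a pooled one. The part of copy number in the missing peaks was not tested, and a stretch without a peak among the 23 cannot be read as unbound.

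Among the 8 unique stretches, the 5 bound ones hold the 14-base sequence and the other 3 lack it. The presence in the 5 is fixed by the derivation. The sequence was taken as common to every bound summit, so a stretch without it could not be a bound one. Its absence from the other 3 was not fixed, since an unbound stretch can hold a copy, but it rests on 3 stretches. The values are given as a description only. The 3 unique stretches without it had pooled signals of 12.9 (his-35 and his-41), 7.90 (his-38 and his-40) and 6.76 (his-2 and his-1). The stretch of his-6 (H3) and his-5 (H4) holds a copy and is 85.6% unique. Its pooled summit had 17.9, below the threshold. The replicates differed in rank, with 4.87 at rank 9794 (replicate 1) and 16.3 at rank 2636 (replicate 2). The other 8 stretches with a copy have at most 1.00% unique words, and none held a summit in any of the 4 lists. No test of a link between the sequence and binding was made.

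**Figure D3:**
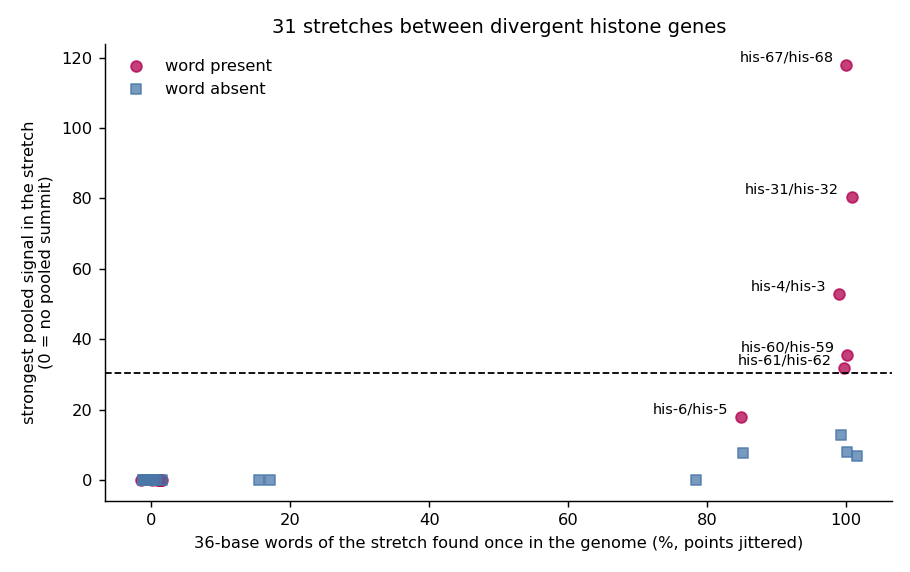
The strongest pooled signal in each of the 31 divergent histone stretches (y axis, 0 where there is no pooled summit) against the percentage of its 36-base words found at a single place in the genome (x axis). Points above the dashed line of the lowest thresholded signal are the 5 stretches that are 100% unique and hold the 14-base sequence; the stretches with no unique words all sit at 0.

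The same picture held gene by gene. In 27 members at least 90% of the words in the 200 bp before the 5′ end are unique, and 12 of these had a 5′ end within 500 bp of a thresholded summit. In the other 45 members, of which 37 have no unique word there, the number was 0. Over all protein-coding genes, whatever their uniqueness, the share was 4.78%. Divergent partners among the 12 share a peak, so they are not independent. The 14-base sequence was present in 10 of the 27 and in 18 of the 45.

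In the pooled list 23 of 72 members had a summit (31.9%, Wilson interval 22.3% to 43.4%), below the 46.3% of all protein-coding genes. They were 17 of the 27 members with at least 90% unique words in the 200 bp upstream, and 6 of the other 45. The lower share of the whole family was therefore not seen in the 27. The 46.3% covers genes of any uniqueness, and the share over all genes with equally unique upstream sequence was not computed. The part of copy number in the lower share was not tested. The replicate lists had 18 members (25.0%, beside 44.6% of all genes) and 21 members (29.2%, beside 49.5%). Of the 14 clusters, 5 had a bound gene and 10 a pooled summit; of the 5 isolated genes, his-24 was bound and 3 had a pooled summit. The 13 genes of the largest cluster, his-16 to his-42 on chromosome II, had pooled summits only at its outer ends, of 8.50 at his-16 and 12.9 at his-42. The summit at his-42 lay 596 bp upstream, inside the noncoding gene F08G2.15, which overlaps the small nuclear RNA gene F08G2.10. There replicate 1 had a signal of 27.1 and replicate 2 of 19.8, but their summits lay apart, 881 and 488 bp upstream of his-42. Clusters without any pooled summit were his-47 to his-45 and his-55 to his-57 on chromosome IV and his-50 to his-53 and his-28 to his-18 on chromosome V. In all of these 4 clusters the median unique share of the 200 bp upstream was 0%.

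**Figure D4:**
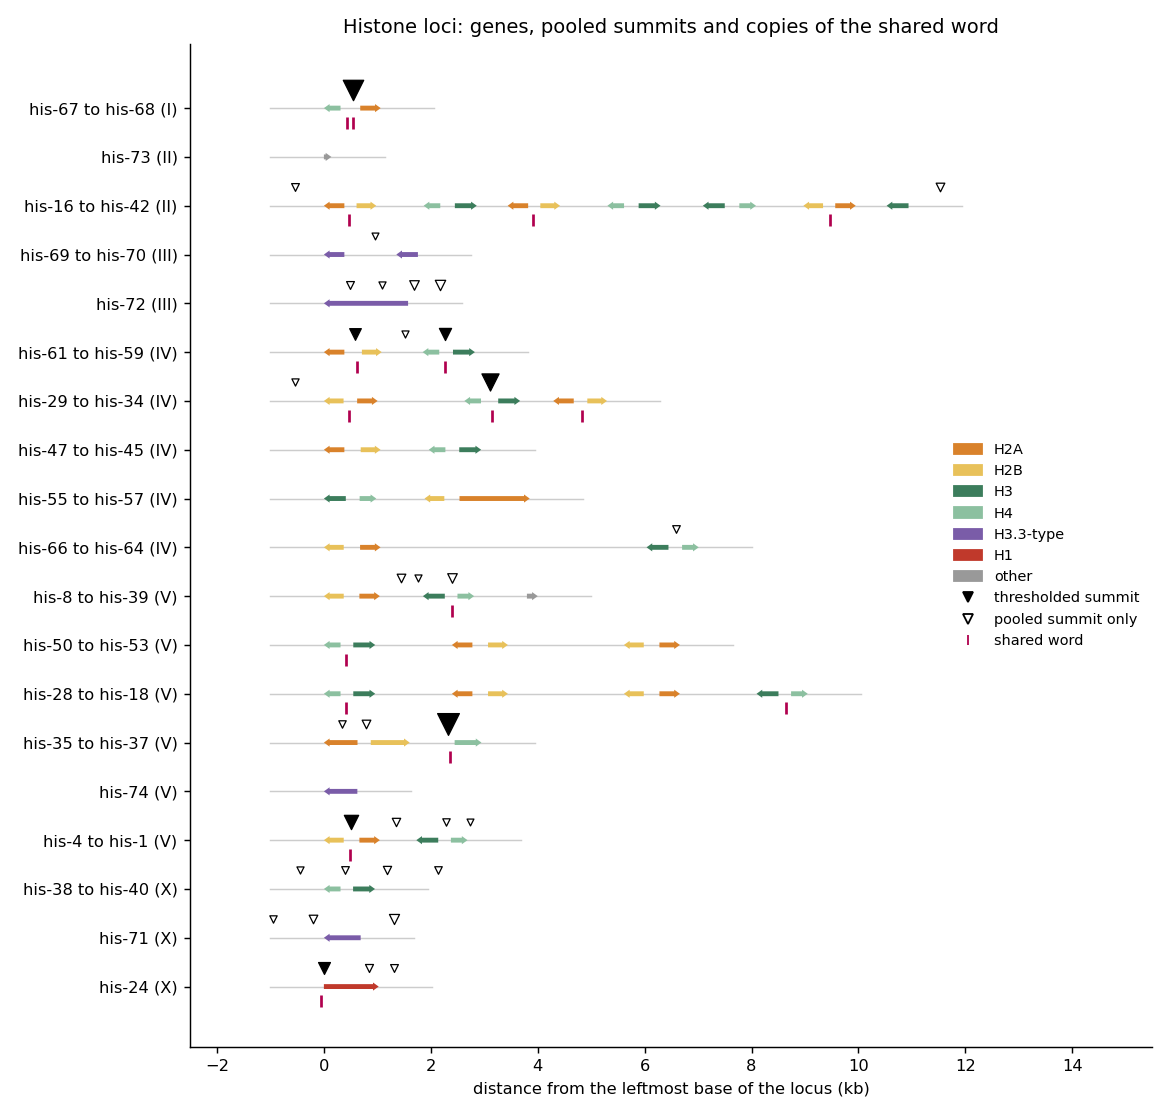
The 19 histone loci, with distance in kb from the leftmost base of each locus on the x axis and chromosomes in brackets. Arrows are genes coloured by class, triangles are pooled summits sized by signal (filled where thresholded) and red bars are copies of the 14-base sequence; filled triangles occur in 6 loci, each beside a red bar, as the derivation of the sequence requires.

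The H3.3-type genes, replacement histones whose upstream sequence is unique, had only weaker summits. The highest were at his-72, with a pooled signal of 22.9 at 594 bp upstream and 18.0 at 103 bp upstream. The first had 8.18 in replicate 1 and 18.0 in replicate 2. At his-71 the highest was 21.1, 619 bp upstream, with 2.64 in replicate 1 and 14.0 in replicate 2. These were the members nearest below the threshold, together with his-5. At his-69 the pooled signal was 4.41, and his-70 and his-74 had none. None of the 5 has the 14-base sequence in the 200 bp before its 5′ end. Of the genes annotated only by a histone domain, neither had a summit in any list.

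Named sites were searched within 100 bp of the 7 summits on both strands. The strict NR5A site TCAAGGTCA was at 0 of 7, beside 0.944% of the 1801 nuclear summits. The receptor core AGGTCA was at 1 of 7, the summit of his-31, beside 12.6%. The repeat GAGAGAG was at 2 of 7 (his-31 and his-68), beside 20.9%. GAGACGCAG, a site known for the zinc-finger factor EOR-1, occurred at 1 of 7 (his-68), beside 12.4%, and the E-box CACGTG at 0 of 7, beside 8.44%. TATAAA, the core promoter element, was at 4 of 7, beside 10.4%. It was at 37 of 72 members in the 200 bp upstream (51.4%), beside 30.4% of all genes. With 7 windows, a site of these frequencies can be absent without being rarer.

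Other genes of the pathway were counted by the same rule. Of 11 linker histones and variants outside the symbol rule, 0 were bound, at a background of 6.05%, and 6 had a pooled summit, beside 46.3% of all protein-coding genes. The highest were 22.4 at hcp-3, the centromeric H3, and 15.9 and 15.1 at the linker histone genes hil-3 and hil-2. Of 14 genes for histone RNA processing and histone chaperones, 2 were bound and 9 had a pooled summit. These were chaf-2, a subunit of the chromatin assembly factor CAF-1, with 38.6 (16.7 and 24.4 in the replicates), and nap-1, a nucleosome assembly protein, with 34.0 (12.3 and 24.4). The ASF1 chaperone gene unc-85 and the ATRX gene xnp-1 lay just below the threshold with 28.8 and 27.9. The stem-loop binding protein gene cdl-1, needed to process histone RNA, had 10.9.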

How the data were processed

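ChIP-seq peaks of 2 replicates were used as deposited. Per the labels, chromatin was sheared by sonication, and the lists are of build ce11; for the aligner, the peak caller and the cutoff on reproducibility, names and values were not given in the sources used here. Of each peak list, the position, the signal and the summit offset were used. The signal score is the authors' own deposited value with no stated scale, so it was used only within a list; read depth is unknown. Summits are start plus offset. Genes came from Ensembl release 115 for WBcel235, which is ce11. Ensembl gives 36 members a symbol shared with a near-identical copy, so symbols and product classes were taken from RefSeq by WormBase ID. Sequences were read from the RefSeq WBcel235 genome. Word uniqueness was counted over the whole genome on both strands. Overlap meant at least 1 bp. No significance test was made: 1 group has no contrast. Wilson intervals cover counting error only and treat the members as independent. Members, lists and rules were chosen with earlier results of these data known, and the 14-base sequence after the sequences were seen. Named genes are all bound members, those nearest below the threshold, every cluster, and the H1, H3.3-type and other bound pathway genes. Assignment, motif search and uniqueness were tested on simulated data. Python 3.11.15, pandas 2.3.3 and SciPy 1.17.1 were used.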

Additional observations from a re-analysis of the deposited data

How the results depend on the processing

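The count of 7 bound histone genes, and of 7 summits, held with windows of 500 bp and 1 kb, 1 5′ end per gene, 5′ ends of genes of any biotype, merged peaks, and unique windows only. The 7 summits lie 5 to 161 bp from their gene and all 7 windows are 100% unique. The window sizes and the uniqueness filter therefore could not lower the count. It was 4 with the peaks above the median signal for both counts, where fewer peaks remain. Counting every gene with a 5′ end in reach, instead of the nearest, gave 12 genes within 500 bp and 19 within 2 kb. With the strongest peaks of 1 replicate alone the count of bound genes and of summits ranged from 6 (without replicate 1) to 7 (without replicate 2). The genes counted were not all the same. Histone genes with a pooled peak numbered 23, with 14 in a 500 bp window and a range from 18 to 21 with 1 replicate list alone. The share of histone peaks that overlapped both replicates fell from 100% to 57.1% with the strongest peaks of each. TATAAA was at 0 of the 7 summits within 50 bp, and the 14-base sequence, searched in this window as an alternative chosen after seeing the data, at 6. In all, 26 of 32 alternatives to the main counts stayed within the accepted range, including settings that could not lower the count. The cause of the changes under the other alternatives was not tested. No paired analysis was possible because there is 1 group. The precision is limited by 2 replicates and an unknown depth, and no control track was used.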

Other observations

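Copies of the 14-base sequence not assigned to a histone gene of the symbol rule had no thresholded summit within 100 bp. Of 22 such copies, 0 lay within 100 bp of a thresholded summit and 4 within 100 bp of a pooled one. At 10 of the 22, at least 90% of the 36-base words around the copy are unique, and none of those 10 had a pooled summit within 100 bp. Of the 22, 8 had a second copy in the opposite direction within 100 bp. One copy lay 52 bp upstream of hil-2, a linker histone gene outside the symbol rule, and reads with that gene. Its surroundings are 100% unique, the nearest pooled summit was 138 bp away, and the highest pooled signal at hil-2 was 15.1. Others lay 140 bp upstream of fbxb-107 and 767 bp upstream of ZK177.1, both unique, and the nearest pooled summits were 7356 bp and 4488 bp away.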
